A study of Mnemiopsis leidyi with 40 samples.

Results

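A group of 46 gene models of the ctenophore (comb jelly) Mnemiopsis leidyi had little or no RNA in the youngest embryos, was highest at 4 to 5 h of development, and was low again by 11 h and at 20 h. These 46 were found among 16548 gene models. They were chosen from the measured levels. For each gene the reads of all embryos in a block of neighbouring times were summed and divided by the summed gene reads of those embryos, which gives counts per 1000000 gene reads (CPM). The 8 blocks were 0-1, 2-3, 4-5, 5.5-6.5, 7-7.5, 8-9, 11-13 and 20 h, and 10 h entered no block. A member had its highest block at 4-5 h, reached at least 20 CPM there and at least 4 times its level at 0-1 h, and lay at 1/3 or less of its 4-5 h level both at 11-13 h and at 20 h. All levels below that restate these criteria are descriptions and carry no test.

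The series measured messenger RNA by CEL-Seq, a method that tags and sequences the 3' ends of transcripts, in 40 whole single embryos. The embryos form a time course from 0 to 20 h with 20 sampled times and 2 embryos at each. The labels name no strain, treatment or genotype, so time is what the groups differ in. Per the authors' sheet of samples, the embryos numbered replicate 1 carry Illumina index 6 and those numbered replicate 2 carry index 12, and these sets of 20 embryos are called pool 6 and pool 12 here. Whether embryos of 1 age came from the same spawning is nowhere stated. A p-value here therefore reflects the spread among single embryos, and part of that spread may be technical. In the tests within 1 pool described below, embryos of neighbouring ages serve as replicates, so change with age also enters the spread.

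A fertilised egg starts with RNA that the mother placed in it, and RNA from the embryo's own genes is added as cleavage proceeds. In ctenophores the early cleavages follow a fixed pattern, gastrulation follows, and the embryo then builds its comb rows, tentacles and sense organ before it hatches as a small free-swimming cydippid. Genes with RNA for a short time only are a common feature of early animal development, and in well studied species they include regulators of cell fate. No such role is assigned here. The deposited gene IDs matched 0 entries of the RefSeq gene table of the organism (19625 genes, assembly crg_Mlei_v2), so the members are given by ID and their functions and sequences are not given.

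Gene reads per embryo ranged from 977034 to 4511124 in 36 libraries. Fewer reads came from 4 libraries. The pool 6 embryo of 4 h had 580587, the pool 12 embryos of 8.5 and 5.5 h had 343202 and 264033, and the pool 6 embryo of 10 h had 3808. The last of these held 3 reads of members in all and measures none of them.

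The summed level of the 46 members was high for a few hours only. At 0 h the members together made up 63.6 and 77.9 CPM in replicates 1 and 2. By 2 h the sums were 136 and 162 CPM, and by 3 h they were 1399 and 947 CPM. The sums were highest from 4 to 5 h. They were 7048 and 5520 CPM at 4 h, 6787 and 7411 CPM at 4.5 h, and 6675 and 3511 CPM at 5 h. Replicate 2 at 5 h was therefore already below both embryos of 5.5 h, which held 4132 and 4613 CPM. The decline then ran through 3409 and 3721 CPM at 6 h, 1931 and 1776 CPM at 6.5 h and 1481 and 1389 CPM at 7.5 h. The sums at 9 h were 596 and 701 CPM, and at 20 h 253 and 267 CPM. The widest relative gaps between embryos of 1 age were at 5 h and at 7 h, where replicate 1 held 6190 CPM and replicate 2 held 1659 CPM.

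**Figure D1:**
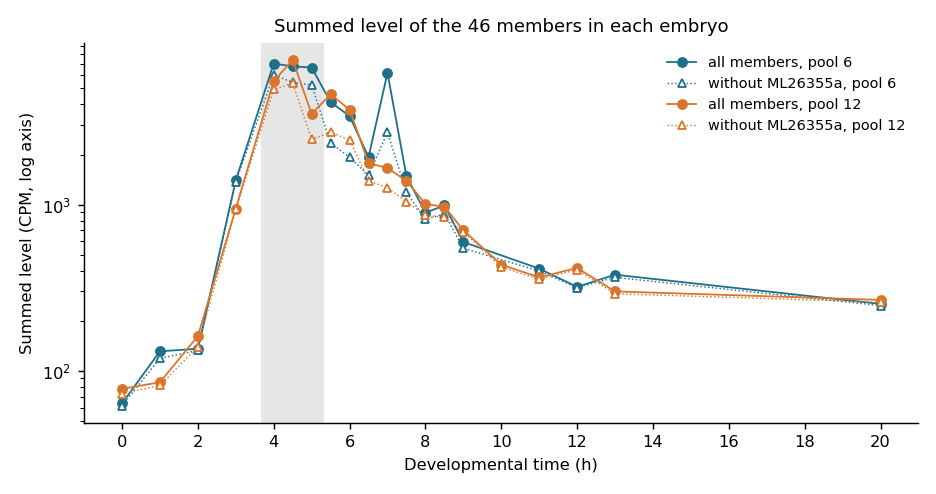
Summed level of the 46 members in each embryo (CPM, log axis) against developmental time in hours, with filled circles for all members, open triangles for the sum without ML26355a, and a colour for each pool. The grey band marks 4 to 5 h, and 10 h replicate 1 is left out. The embryo of pool 6 at 7 h stands at 6190 CPM, beside 1659 CPM in pool 12, and 2726 against 1262 CPM remain without ML26355a.

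The members differed widely in level. Their pooled level at 4-5 h had a median of 68.6 CPM and ran from 20.98 CPM in ML082716a to 1262 CPM in ML26355a. In all, 18 members reached at least 100 CPM, 13 lay between 40 and 100 CPM, and 15 lay under 40 CPM. The sum over the members was 5862 CPM, and ML26355a alone supplied 21.5% of it. Since CEL-Seq reads come from transcript ends, these levels are not divided by transcript length.

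ML26355a was the most abundant member. Its 4 embryos of 0 and 1 h held 12.2 CPM or less. At 2 h the values were 3.11 and 22.1 CPM, and at 3 h 25.6 and 12.7 CPM. Its main increase lay between 3 and 4 h, when it reached 1030 and 596 CPM. The next embryos held 1350 and 2032 CPM at 4.5 h, 1435 and 1044 CPM at 5 h, 1790 and 1890 CPM at 5.5 h and 1481 and 1275 CPM at 6 h. The embryos of 4 h and of 5.5 h did not overlap. By 6.5 h both embryos were down, at 433 and 382 CPM. At 7 h replicate 1 held 3463 CPM, the highest value of this member in any embryo, and replicate 2 held 397 CPM. The values were 298 and 349 CPM at 7.5 h, and 49.0 and 14.3 CPM at 9 h. ML26355a did not meet the criteria within pool 6 alone. It also dropped out of the group without the pool 6 embryo of 6.5 h or the pool 12 embryo of 7 h. Its mean was 1248 ± 485 CPM over the 6 embryos of 4 to 5 h (SD), 5.68 ± 4.54 CPM over the 4 of 0 and 1 h and 9.23 ± 3.38 CPM over the 8 of 11 to 20 h.

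ML30695a, second in level, also appeared between 3 and 4 h. It held 1.44 and 1.96 CPM at 3 h, then 866 and 639 CPM at 4 h, 1081 and 798 CPM at 4.5 h, and 891 and 274 CPM at 5 h. It settled at a plateau above its starting level. Its mean was 83.0 ± 21.1 CPM over the 8 embryos of 11 to 20 h, against 3.02 ± 3.96 CPM over the 4 of 0 and 1 h, and these embryos did not overlap (51.2 CPM was the lowest late value and 8.66 CPM the highest early one). The next 8 members in level had means between 166 and 289 CPM over the 6 embryos of 4 to 5 h. They were ML141712a with 289 ± 115 CPM, ML12427a with 259 ± 97.7 CPM, ML273215a with 255 ± 55.1 CPM, ML435837a with 224 ± 82.6 CPM, ML004917a with 196 ± 73.4 CPM, ML270546a with 168 ± 64.8 CPM, ML128438a with 167 ± 25.1 CPM and ML435830a with 166 ± 77.7 CPM. Neighbours among these 8 differed by less than their SDs.

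At 0-1 h the members ranged from no read in 12 of them to 30.7 CPM in ML141712a, where 3 reads pooled over the block correspond to 0.353 CPM. The median member stood at 0.376% of its 4-5 h level at 0-1 h, and the highest at 14.6%. The members with the largest ratios were picked with early counts under 3 set to 3 reads, and the ratios given here are of the reads as counted. Without that floor the order changes, since ML01739a (1026 against 1 read), ML32213a, ML08927a and ML10432a then also exceed the lowest ratio given. These ratios rest on a handful of early reads. ML273215a had 2238 reads at 4-5 h against 2 at 0-1 h, a ratio of 1044 with a 95% interval from 289 to 8627. The ratio of ML21251a was 612 (1311 against 2 reads, interval 169 to 5056), and that of ML004917a was 527 (1693 against 3 reads, interval 180 to 2556). ML435837a stood 347-fold higher (1862 against 5 reads, interval 149 to 1071). ML435830a had 1421 reads at 4-5 h and none at 0-1 h, so its level was at least 442-fold higher, taking 3 early reads over the block as the floor. The intervals are exact binomial ones and cover counting error only.

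At the late end, the members with the largest ratio of 4-5 h to the higher of 11-13 h and 20 h, with late counts under 3 set to 3 reads, were ML26355a, ML08927a, ML05476a, ML12427a and ML25401a. Ratios to 11-13 h alone give another order, and ML475511a and ML08507a had no read there. Relative to 11-13 h, ML26355a was 131-fold higher at 4-5 h, ML08927a 232-fold (1064 against 7 reads), ML05476a 98.5-fold (969 against 15 reads), ML12427a 61.6-fold and ML25401a 94.7-fold (621 against 10 reads). Relative to 20 h, where 3 reads correspond to 1.12 CPM, ML26355a was 179-fold and ML12427a 131-fold higher. ML08927a and ML05476a had 1 read each at 20 h, with ratios of 314 (95% interval 56.3 to 12428) and 286 (51.3 to 11319). ML25401a had no read at 20 h and was at least 61.2-fold higher at 4-5 h, with 3 reads over the block as the floor. In whole embryos, fewer cells with the RNA and less RNA per cell cannot be told apart.

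The members came on at different times. At 2-3 h the median member had reached 17.0% of its 4-5 h level, but the range ran from 0.335% to 89.8%. With both embryos of a time pooled, 13 members first reached 50% of their 4-5 h level at 3 h, 30 at 4 h and 3 at 4.5 h. Among the other genes that had come on by 4-5 h (at least 20 CPM there and at least 4 times their 0-1 h level), 137 were highest in a later block. Their median level at 2-3 h was 3.78% of that at 4-5 h.

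**Figure D2:**
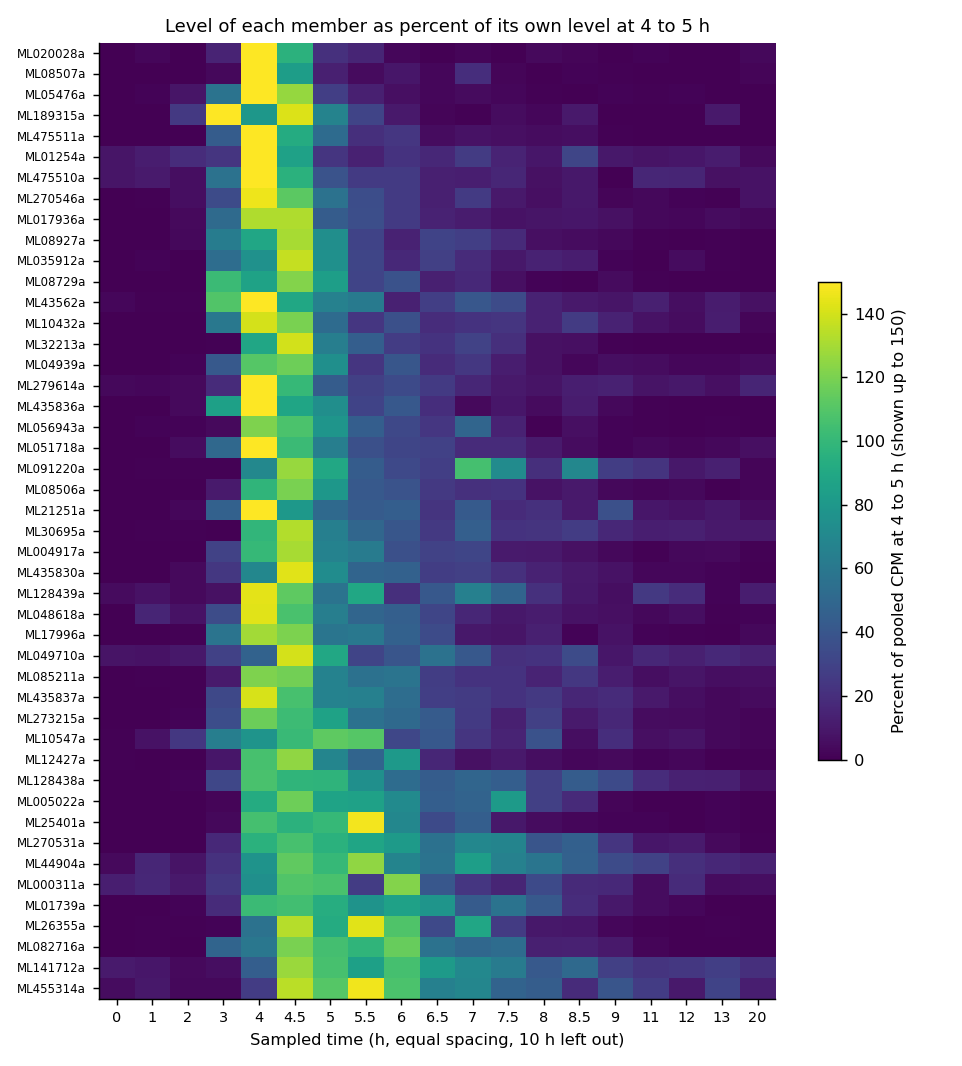
Level of each of the 46 members (rows) at each sampled time (columns, equally spaced, 10 h left out) as a percentage of its own pooled level at 4 to 5 h, both embryos of a time pooled and values above 150% drawn as 150%. Rows run from the member with the lowest share of its level left at 5.5 to 6.5 h (ML020028a, 3.75%) at the top to the one with the highest (ML455314a, 97.8%) at the bottom.

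The step from 2 to 3 h was not compared in the choice of members. The choice did require a rise of at least 4-fold from 0-1 h to 4-5 h, and a lower level at 2-3 h than at 4-5 h. Some rise in between was bound to occur, and part of it could fall at this step. In a fit over all 40 embryos with time as a 20-level factor, 9 members were called higher at 3 h than at 2 h. This fit has no term for the pool, although each time holds 1 embryo of each pool. Counts with the pool as a block are given at the end. A call needs a p below 0.05 adjusted by the Benjamini-Hochberg method over all genes tested and a log2 fold change of 1 or more in size, by the quasi-likelihood test of edgeR. Of all 9576 genes tested, 9 were called higher, or 0.094%, and all 9 were members. None of the 137 genes that were highest later was called (2 of them were higher at an unadjusted p below 0.05, and 0 were called by DESeq2). These 137 were chosen to be highest later, which favours fewer early calls among them. Another 16 genes on by 4-5 h were highest at 2-3 or 4-5 h but are no members. Of these, 0 were called higher, and 1 was higher at an unadjusted p below 0.05. The differences between these groups of genes were not tested. The median log2 fold change of the members was 3.22, against 0.00 for all genes, and 43 of 46 were positive. With the 9 members that had no read at 2 h set to 3 reads, the median was 3.24.

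Of the 9, ML004917a had the lowest p. It rose from 0.311 and 1.23 CPM at 2 h to 70.8 and 32.9 CPM at 3 h (3 against 263 reads, log2 fold change 6.10 ± 0.91, SE, adjusted p = 0.0021). This value was 5.13 with the pool 6 embryo of 2 h left out and 7.06 with that of pool 12 left out. ML273215a rose from 4.98 and 2.46 CPM to 94.6 and 76.5 CPM (20 against 418 reads, 4.39 ± 0.71, adjusted p = 0.00469). ML10432a had no read at 2 h and 58.1 and 37.3 CPM at 3 h (237 reads, adjusted p = 0.00609), a level at least 79.5-fold higher if 3 reads are taken as the floor at 2 h. For these 3 members the embryos of 2 h and 3 h did not overlap. The other 6 called were ML43562a, ML128438a, ML435837a, ML08729a, ML082716a and ML475511a, named here because the count is short. The number called depended on each of the 4 libraries in the contrast. Leaving out the 2 h embryo of pool 6 left 0, that of pool 12 left 1, and leaving out the 3 h embryo of pool 6 or of pool 12 left 4 or 5. Without the filter on low counts it was 20.

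Other members were still far below their 4-5 h level at 3 h. ML26355a and ML30695a, described above, were still at or below 25.6 CPM in every embryo of 3 h. ML12427a had 20.6 and 23.0 CPM at 3 h and 308 and 241 CPM at 4 h, and ML25401a had 1.81 and 2.45 CPM and then 87.8 and 66.5 CPM.

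**Figure D3:**
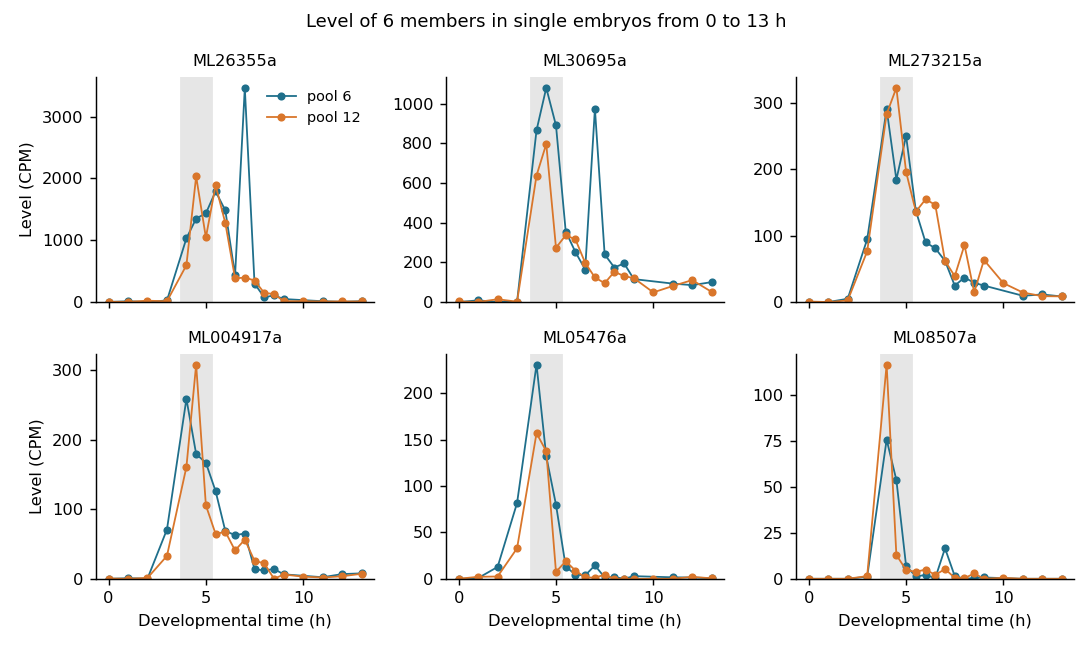
Level (CPM) of 6 members in single embryos from 0 to 13 h, with a line for each pool and the grey band at 4 to 5 h; 10 h replicate 1 is left out. ML273215a and ML004917a stand between 32.9 and 94.6 CPM at 3 h while ML26355a and ML30695a are at or below 25.6 CPM, ML05476a and ML08507a are down again by 5.5 h, and the high values of ML26355a and ML30695a at 7 h come from pool 6.

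The highest time fell within 4 to 4.5 h for most members. With both embryos pooled, 21 members were highest at 4 h, 18 at 4.5 h, 1 at 5 h, 1 at 3 h, 4 at 5.5 h and 1 at 6 h. The time of the maximum was the same in both pools for 17 of 46 members, so the order within this window is not resolved for most. In pool 6 the maximum of 4 members (ML26355a, ML091220a, ML25401a and ML056943a) fell at 7 h.

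Within the block of 4-5 h the choice of members compared no times. It did require lower levels in all later blocks, which favours a fall across the block. The 137 genes highest later were chosen to be higher after it, which favours a rise. The contrast between these groups of genes is therefore partly built in. At 5 h against 4 h, 1 member was called lower in the fit over all embryos, where 3 of 9576 genes were (0.0313%). This member, ML08507a, had 75.8 and 117 CPM at 4 h, 53.8 and 13.0 CPM at 4.5 h, and 6.98 and 4.78 CPM at 5 h. Its log2 fold change from 4 to 5 h was -4.10 ± 0.94 (SE, edgeR adjusted p = 0.0413). All later embryos lay at or below 16.6 CPM. The call was lost with total counts as the scale (edgeR adjusted p = 0.0540) and with DESeq2 (adjusted p = 0.0604), so that 0 members were called. A filter at a mean of 10 CPM removed ML08507a from the test, and 0 members were called there too. The call was also lost, again with 0 called, when a single embryo was left out. This held for any of the 2 of 5, 7.5, 8, 10 or 20 h and for the pool 12 embryo of 4 h. Over all members the median log2 fold change was -0.51, against 0.03 for all genes, and 35 of 46 were negative. The 137 genes that were highest later had a median of 2.97, and 36 of them were called higher, where 0.574% of all genes were. The 16 genes that were highest at 2-3 or 4-5 h but are no members had a median of -3.90 from 4 to 5 h. Among them 10 of 16 were negative, 8 were lower at an unadjusted p below 0.05 and 1 was called lower (4 by DESeq2). The 2 embryos of 5 h differed from each other. Replicate 1 was the higher one for 44 of 46 members at 5 h, for 24 at 4.5 h, for 33 at 4 h and for 29 at 3 h. At 4.5 h replicate 2 was the higher one for 22. The same counts over all genes are not given here. At 5 h the members without ML26355a summed to 5241 and 2467 CPM.

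The members left their peak at different speeds. At 5.5-6.5 h the median member retained 35.8% of its 4-5 h level, and the range ran from 3.75% to 97.8%. At 7-7.5 h the median was 22.3%, at 8-9 h 10.6%, at 11-13 h 3.27% and at 20 h 2.15%. After 5 h, 28 members were first below 50% of their 4-5 h level at 5.5 h, 5 at 6 h, 7 at 6.5 h, 1 at 7 h, 1 at 7.5 h, 3 at 8 h and 1 at 8.5 h. ML05476a was among the fastest. It had 231 and 157 CPM at 4 h, 79.8 and 7.38 CPM at 5 h and 13.2 and 18.9 CPM at 5.5 h, and its embryos of 6 to 9 h held between 0 and 14.4 CPM. ML141712a was among the slowest. Its level was 198 and 114 CPM at 4 h, 337 and 439 CPM at 4.5 h, and still 236 and 272 CPM at 6.5 h and 124 and 129 CPM at 8 h. Its embryos of 0 and 1 h held between 23.2 and 39.6 CPM, so it was present from the start, and it lay closest of all members to both late limits.

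The later steps were tested in the same fit. The choice of members required a fall by 11-13 h, so that some fall was bound to occur between, but it did not compare the middle blocks with each other. From 5.5 h to 6.5 h, 0 members and 0 of all genes (0%) were called lower by edgeR, and 0 members by DESeq2. At an unadjusted p below 0.05, 4 members and 180 genes were lower. The median log2 fold change of the members was -0.78, against 0.15 for all genes, and it was -0.93 with pooled reads and a floor of 3 reads.

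From 5.5-6.5 h to 7-7.5 h, 2 members were called lower, where 1.17% of all genes were. ML12427a held 105 and 189 CPM at 5.5 h, 82.6 and 292 CPM at 6 h and 46.9 and 25.3 CPM at 6.5 h. At 7 h it held 0 and 21.7 CPM, and at 7.5 h 42.3 and 11.8 CPM. The fall was -2.42 ± 0.64 on the log2 scale (SE, edgeR adjusted p = 0.0324), although the embryos of 6.5 h overlap those of 7.5 h. With an embryo left out this value ran from -6.19 to -1.95. The first is without the pool 12 embryo of 7 h, where the 7 h embryo that remains has no read and the fitted value depends on the prior count. ML273215a held between 81.1 and 155 CPM in the 6 embryos of 5.5 to 6.5 h and between 24.8 and 62.1 CPM in the 4 of 7 and 7.5 h, which did not overlap (-1.43 ± 0.40, adjusted p = 0.0426). The median over the members was -0.61, against 0.12 for all genes. Each call was close to the limit. Leaving out any single embryo of 5.5 or 7.5 h, or the pool 12 embryo of 6 h, left 0 members called lower. Leaving out any single embryo of 6.5 or 13 h, the pool 12 embryo of 7 h, or the 4 shallow libraries left 1 of the 2. Without the pool 6 embryo of 7 h, 1 member was called lower, but it was not ML12427a or ML273215a. With all embryos in the fit no member was called higher, where 2.88% of all genes were. With the pool as a block, 2 members were called lower and 1 was called higher. The count called higher was also 1 with the pool 6 embryo of 0, 1, 2, 3, 4.5 or 5 h left out, or the pool 12 embryo of 2, 5.5 or 6.5 h.

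From 7-7.5 h to 8-9 h, 7 members were called lower, where 0.324% of all genes were (31 genes). ML26355a had the lowest p (-3.41 ± 0.48, SE, edgeR adjusted p = 0.000308), from 3463, 397, 298 and 349 CPM at 7 and 7.5 h to values between 14.3 and 147 CPM in the 6 embryos of 8 to 9 h. ML056943a changed by -4.10 ± 0.76 (adjusted p = 0.00838), from 83.8, 7.98, 9.47 and 5.89 CPM to values between 0 and 3.63 CPM. ML25401a changed by -3.44 ± 0.69 (adjusted p = 0.0166), from 93.9, 11.1, 10.9 and 3.21 CPM to values between 0 and 4.25 CPM. The earlier and later embryos of ML26355a and ML056943a did not overlap, and those of ML25401a did. The other 4 called were ML005022a, ML32213a, ML004917a and ML091220a, named because the count is short. Over all members the median was -1.19, against 0.02 for all genes, and 43 of 46 were negative. The first value listed for each of the 3 is 7 h replicate 1. Without that embryo the log2 fold changes shrank to -2.35 in ML26355a, -2.94 in ML056943a and -2.42 in ML25401a, and 1 member, ML26355a, was called lower. Leaving out the pool 6 embryo of 8.5 or 9 h made those of ML056943a and ML25401a larger, up to -5.88 and -4.98. Among the other embryos of pool 6, leaving out that of 7.5 h left 1 member called, that of 8 h left 2, that of 9 h left 4 and that of 8.5 h gave 15. In pool 12, leaving out the embryo of 9 h left 2, that of 7.5 h left 3 and that of 8.5 h left 4. The count was 4 without the shallow libraries and 11 with the pool as a block. No member was called higher, where 0.982% of all genes were.

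In these 5 steps, 0 members were called in the opposite direction by edgeR in the fit without a block, and 0 by DESeq2. At an unadjusted p below 0.05, 2 members were higher at 5 h than at 4 h and 1 at 7-7.5 h than at 5.5-6.5 h, and none was opposite in the other 3 steps.

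**Figure D4:**
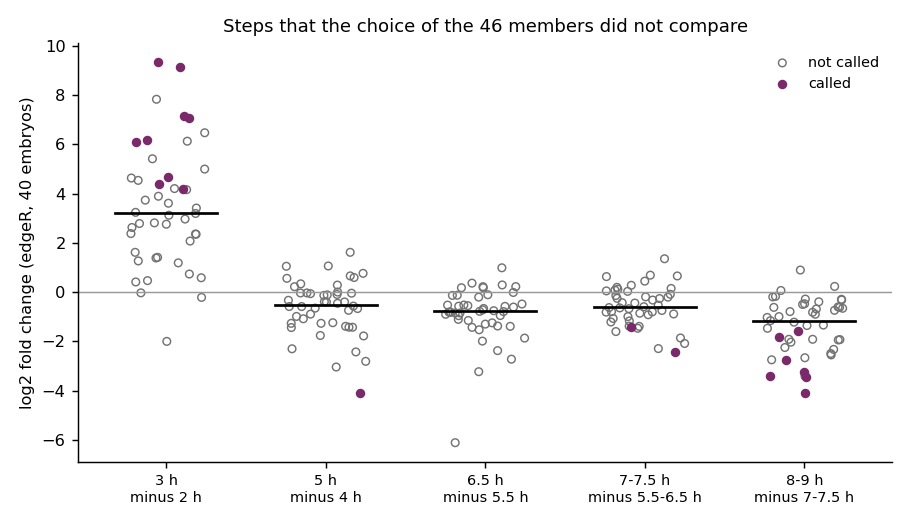
Log2 fold change of each of the 46 members in 5 steps that the choice of members did not compare, from the edgeR fit over 40 embryos, with filled points for members called and bars for the median of all members. Called members number 9, 1, 0, 2 and 7 from left to right, and the medians are 3.22, -0.51, -0.78, -0.61 and -1.19.

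The embryo of 7 h in pool 6 stood apart from its neighbours in age. Compared with the other 5 embryos of 6.5 to 7.5 h, 18 of 46 members (39.1%) were above all of them, as were 26.7% of the 5608 genes with a mean of at least 10 CPM. More than 2-fold above all 5 were 10 members (21.7%) and 1.21% of those genes. The members were not held to the limit of 10 CPM, so these shares are of unlike sets. Among the 10 members is ML020028a, with 1.44 CPM (2 reads) against 0.443 CPM. ML26355a held 3463 CPM, or 8.00 times the highest of the others, and ML30695a held 976 CPM, or 4.06 times. ML270546a (73.7 against 28.8 CPM), ML21251a (118 against 43.9 CPM), ML25401a (93.9 against 23.2 CPM) and ML056943a (83.8 against 21.0 CPM) also stood above the others. Other members did not, and 4 lay below all 5 embryos. ML273215a held 62.1 CPM in both embryos of 7 h, ML435830a held 44.1 CPM in both, and ML12427a had no read in this library of 1384763 gene reads, against 21.7 CPM in replicate 2. This comparison was made after the values were seen and was not tested.

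The 10 h embryos had no part in the choice of members. The next block, 11-13 h, did, and members had to lie at 1/3 or less there. Low values at 10 h were therefore largely set by the choice. In replicate 2 of 10 h, the median member lay at 3.07% of its 4-5 h level, 44 of 46 lay at 1/3 or less, and 11 had no read. The exceptions, ML44904a at 55.3% (13.5 CPM) and ML141712a at 44.5% (135 CPM), are among the members with the slowest decline. Of the 137 genes that were highest later, 16 lay at 1/3 or less, and the median of the 137 was 138%. These genes were chosen to be higher later and are no neutral background. The share over all genes is not given here.

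To test the rise and fall on embryos that did not choose the genes, the same criteria were applied to the 19 embryos of 1 pool, and the genes found were tested in the 19 of the other (10 h left out). Pool 6 gave 54 genes and pool 12 gave 42. They share 35 genes, which is 64.8% of the first list and 83.3% of the second. Of the 46 members, 43 were chosen in pool 6 and 38 in pool 12, and every member was chosen in at least 1 pool. All the genes chosen passed the filter on low counts in the other pool. Within a pool each time has 1 embryo, so the embryos of different ages in a block serve as its replicates. Change with age inside a block therefore adds to the spread in these tests. In pool 6, for example, the members summed to 136 CPM at 2 h and 1399 CPM at 3 h, which share a block.

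The 54 genes of pool 6 were tested in pool 12, among 9898 genes. At 4-5 h against 0-1 h all 54 were higher and 40 were called, where 1.97% of all genes were. At 11-13 h against 4-5 h 52 were lower and 42 were called (7.92% of all genes), and at 20 h against 4-5 h 52 were lower and 25 were called (3.4%). In each pool 20 h is a single embryo, which the fit assumes to vary like the others, so its counts rest on that embryo. The median log2 ratios from pooled reads, with counts under 3 reads set to 3, were 5.66, -4.33 and -3.80. At 4-5 h against 2-3 h 53 were higher and 17 were called (1.71%), with a median of 2.75. At 5.5-6.5 h against 4-5 h 47 were lower, but 0 were called by edgeR or DESeq2 (0% of all genes), and 15 were lower at an unadjusted p below 0.05, with a median of -1.19. Single embryos of pool 12 weighed on these counts. The count against 0-1 h was 16 with the 0 h embryo left out and 18 with the 1 h embryo left out. That against 2-3 h was 5 with the 2 h embryo left out, and 28 with DESeq2, and that at 5.5-6.5 h was 3 with the 5 h embryo left out.

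The 42 genes of pool 12 were tested in pool 6, among 9331 genes. At 4-5 h against 0-1 h all 42 were higher and 37 were called (2.49% of all genes). All 42 were lower at 11-13 h and at 20 h than at 4-5 h, with 40 called (15.9%) and 34 called (12%). At 4-5 h against 2-3 h 41 were higher and 16 were called (2.39%), and at 5.5-6.5 h against 4-5 h 35 were lower and 9 were called (1.04%). The median log2 ratios with the same floor were 6.51, -4.76, -4.58, 2.60 and -1.69. Single embryos of pool 6 weighed here too. The count against 0-1 h was 23 with the 1 h embryo left out, and that against 2-3 h was 7 with the 2 h embryo and 31 with the 3 h embryo left out. The count at 5.5-6.5 h was 0 with the 6.5 h embryo left out, 1 with that of 4, 4.5 or 6 h, 3 with that of 13 h, 4 with that of 8.5, 11 or 12 h, 5 with that of 1 or 5 h, and 14 with that of 2 or 3 h. In both directions, then, the rise after 0-1 h and the fall by 11-13 h were called for most genes in embryos that had not chosen them. The first step of the decline was called for few. Since change with age inside the blocks adds to the spread, few calls do not measure the size of a step.

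**Figure D5:**
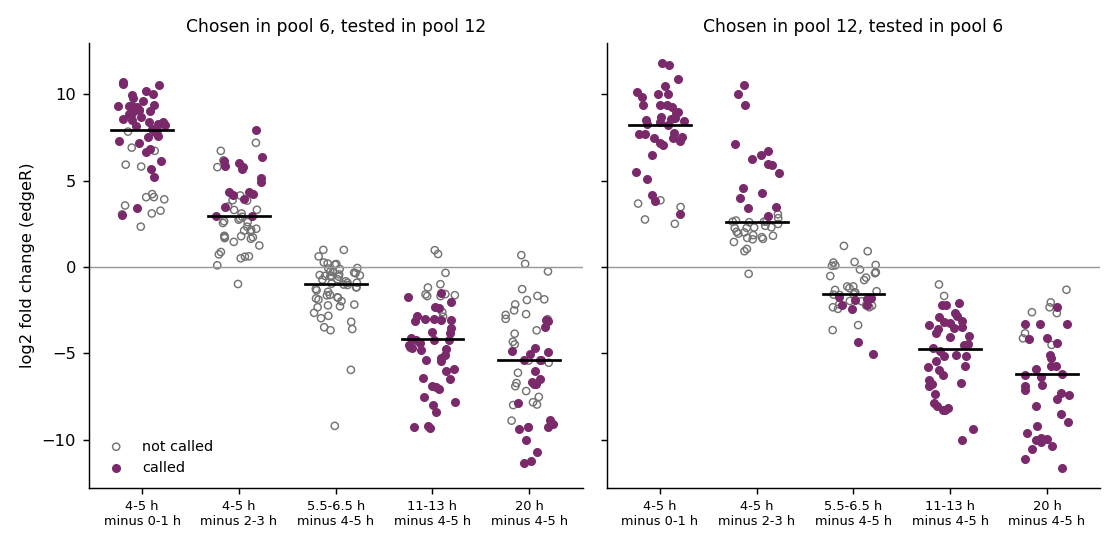
Log2 fold change in the edgeR fit for genes chosen in 1 pool and tested in the embryos of the other, in 5 comparisons between blocks of time, with 54 genes in the left panel and 42 in the right. Filled points are genes called, bars are medians of the fitted values, and fitted values of genes with no read in a block depend on the prior count.

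The pools differed in how high the members stood at 4-5 h. The log2 ratio of pool 12 to pool 6 had a median of -0.285 and ran from -2.67 to 0.78, with 34 members higher in pool 6 and 12 in pool 12. The difference was over 2-fold for 8 members. It was widest for ML049710a, with 214 CPM in pool 6 and 33.7 CPM in pool 12. In its 3 pairs of same-age embryos from 4 to 5 h, ML049710a held 82.7 and 35.8 CPM, 249 and 32.2 CPM, and 227 and 33.4 CPM, with pool 6 the higher in each. The ratios pool the reads of the 3 embryos in each pool, so embryos with more reads weigh more. In pool 12 the 5 h embryo, with a sum of 3511 CPM, had the most (2302952). In pool 6 that of 4.5 h, with 6787 CPM, had the most (1857935). At 4.5 h alone, 24 members were higher in pool 6 and 22 in pool 12. The same counts over all genes are not given here, and the difference between pools was not tested.

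The criteria cut through a continuous range. At the limit of 20 CPM, ML082716a lay just inside with 20.98 CPM and ML181912a just outside with 19.99 CPM, and 142 genes failed this limit alone. The ratio of 4-5 h to 0-1 h was 6.84 in ML000311a, the nearest inside, and 3.19 in ML12316a, the nearest outside. The ratio to 11-13 h was 4.08 in ML141712a and 2.39 in ML03657a, and that to 20 h was 4.98 in ML141712a and 1.62 in ML034630a. Each late limit alone removed 1 gene. The ratio to the highest other block was 1.02 in ML455314a and 0.978 in ML082714a, and 13 genes failed only by being higher in another block. ML455314a held between 2.51 and 46.8 CPM in the 6 embryos of 4 to 5 h and between 14.0 and 54.0 CPM in the 6 of 5.5 to 6.5 h, so its place in the group rests on a difference well inside the spread.

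Some members carry neighbouring ID numbers. The first 4 digits of an ID form a prefix that several genes share, and the 46 members fall on 40 of the 1748 prefixes. How the numbers relate to genome position is not stated. Consecutive numbers occur in 4 pairs (ML08506a with ML08507a, ML128438a with ML128439a, ML435836a with ML435837a, and ML475510a with ML475511a), so that 8 of 46 members (17.4%) have a member next to them. The share was 13 of 137 (9.49%) among the genes that were highest later. It was 2 of 16 (12.5%) among the genes highest at 2-3 or 4-5 h that are no members. Such a share depends on the size of the group, so these are not directly comparable, and the differences were not tested. Members of a pair differed in level. At 4-5 h ML128438a stood at 161 CPM and ML128439a at 21.7 CPM, and ML435837a stood at 204 CPM and ML435836a at 37.0 CPM. They also differed in speed of decline, with 23.3 of 69.0 CPM left at 5.5-6.5 h in ML08506a and 2.31 of 40.7 CPM in ML08507a. Reads that fit 2 similar gene copies may be split or dropped in the counting, so values of any close copies are uncertain. Of the 77 other genes with a number next to a member, 1 had come on by 4-5 h (1.30%), against 199 of 16548 gene models (1.20%). This gene, ML017937a, is next to ML017936a and was highest at 8-9 h, with 66.2 CPM, and was named after its values were seen.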

How the data were processed

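Messenger RNA was measured by CEL-Seq in 40 single embryos. The authors deposited a table of raw counts, 1 row for each gene model. Per the submitters' processing notes, CASAVA 1.8, Bowtie2 2.1.0 and HTSeq 0.5.4p3 were used. The build, annotation, strand setting and any merging of reads by molecular identifier are not stated, and counts are treated as reads. The deposited count table also holds 5 totals that name no gene, with a median of 69.2% of all reads (range 66.2% to 81.3%), and these stayed out of library sizes and tests. From the authors' sheet of samples, deposited beside it, only the Illumina index was used.

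CPM was computed from gene reads, with 10 h replicate 1 left out of levels. Tests used edgeR 4.0.16 in R 4.3.3 on the deposited counts, with filterByExpr at its count minimum of 10, TMM scaling, a quasi-likelihood fit and Benjamini-Hochberg adjustment over all genes tested. The fit over all 40 embryos kept 9576 genes (prior degrees of freedom 9.63, median biological coefficient of variation 0.497), and all 46 members passed its filter. The fits within a pool used 19 embryos and 8 blocks, with the embryos of different ages in a block as its replicates. There 20 h has 1 embryo, which is assumed to vary like the others. Standard errors were derived from each log2 fold change and its F statistic. Each script that tests across genes was checked on simulated counts. These had 1 spread for all genes, no change with age inside a block and no difference between pools. The check therefore does not cover the spread that age adds in the fits within a pool. The pairing by pool comes from the authors' sheet. Deviations of same-age embryos between pools, compared over 171 pairs of times, correlated across genes with a median of 0.171, from -0.234 to 0.666, and 122 were over 0.1. Alternatives were median-of-ratios scaling, total counts, DESeq2 1.42.0, other filters, the pool as a block, and leaving out the shallow libraries or each embryo in turn.

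The members, lists and tests were chosen with earlier results of these data known. Members named are the 10 highest at 4-5 h, the 5 with the largest ratio to 0-1 h, the 5 with the largest ratio to the higher late block, up to 3 called in each direction of each step, and the nearest on each side of each limit. Others were named after their values were seen.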

Additional observations from a re-analysis of the deposited data

Results flagged for a closer look

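Levels of the 10 most abundant members, and the sum over all members, were searched for an embryo far from the others of its block of time, by Dixon's test at its 95% critical value. In 76 groups of 4 or 6 embryos, 8 stood out. A rate of about 1 in 20 would hold for independent groups of normally spread values. These groups span more than 1 age, and the sum includes the 10 members, so the count of 8 is not compared with that rate. In 7 h replicate 1, the summed level of the members was 6190 CPM, with the nearest other embryo of 7 to 7.5 h at 1659 CPM. In the same embryo ML26355a stood at 3463 CPM (nearest 397 CPM) and ML30695a at 976 CPM (nearest 240.5 CPM). ML30695a also stood at 14.2 CPM in 2 h replicate 2, against at most 1.96 CPM in the other embryos of 2 and 3 h. ML004917a stood at 126 CPM in 5.5 h replicate 1 (nearest 68.6 CPM), and ML270546a at 9.90 CPM in 11 h replicate 2 (nearest 2.62 CPM). ML141712a stood at 291 CPM in 8.5 h replicate 2 (nearest 137 CPM), 1 of the 4 shallow libraries, with 343202 gene reads. ML273215a stood at 0.824 CPM (2 reads) in 0 h replicate 2, where the other 3 embryos of 0 and 1 h had no read. What sets these embryos apart was not tested.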

How the results depend on the processing

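The number of members stayed within 1.5 times 46 in all 47 alternatives. It was 47 with the mean of the embryos' CPM (43 shared), 44 with TMM, 53 and 31 with limits of 10 and 40 CPM, 50 and 43 with late limits of 1/2 and 1/5, and 41 to 53 with an embryo left out. For the members described singly as called in a step, no log2 fold change changed its sign in the alternatives run. The counts are of calls in a fixed direction and could not show a reversal, and the medians over members were not followed. Without the filter on low counts more genes were called. For the genes of pool 6 tested in pool 12, 38 were then lower at 20 h (25 with the filter), 36 higher at 4-5 h than at 2-3 h (17, and 28 with DESeq2) and 5 lower at 5.5-6.5 h (0). For those of pool 12 tested in pool 6, 15 were lower at 5.5-6.5 h (9, and 1 without the shallow libraries). For the members, 20 were higher at 3 h than at 2 h (9), 2 lower at 5 h than at 4 h (1, and 0 with total counts, DESeq2 or a mean of 10 CPM), 1 higher and 6 lower at 7-7.5 h (0 and 2, and 1 of each without the shallow libraries), and 18 lower at 8-9 h (7, and 4 without the shallow libraries). With the pool as a replicate block, 1 member was higher at 7-7.5 h and 11 were lower at 8-9 h, 13 were higher at 3 h, and no other count of members changed. With each embryo left out in turn, the counts for pool 6 genes in pool 12 ran from 16 to 42 (against 0-1 h), 38 to 43 (11-13 h), 20 to 33 (20 h), 5 to 25 (2-3 h) and 0 to 3 (5.5-6.5 h). Those for pool 12 genes in pool 6 ran from 23 to 38, 38 to 41, 32 to 36, 7 to 31 and 0 to 14. Those for members ran from 0 to 13 (3 h, higher), 0 to 1 (5 h, lower), 0 to 1 and 0 to 2 (7-7.5 h, higher and lower), and 1 to 15 (8-9 h, lower). The median log2 change of all genes from 4-5 h to 11-13 h was 0.43 with TMM in pool 12 and 0.25 in pool 6, and 0.03 and 0.16 with total counts. Leaving out an embryo of a contrast leaves fewer samples in it; other causes were not tested. Depth limits members at 20 h, where 3 reads are 1.12 CPM, and leaves 10 h with 1 usable embryo.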
